A study of Mus musculus with 18 samples.

Results

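Ion channel genes that encode voltage-gated calcium and sodium channels, potassium channels and their accessory subunits were described in 3 cell populations sorted from mouse intestinal crypts. The set was made of gene symbols on the array that begin with Kcn, Cacna, Cacnb or Cacng, or that read Scn followed by a number and a or b. It came to 103 of the 16358 genes that had a value. Membership was read from the gene name. They comprised 27 voltage-gated potassium channel pore or modifier subunits, 13 inward rectifiers and 10 tandem-pore potassium channels. A further 6 were potassium channels with Kcnma, Kcnn or Kcnu symbols, and 16 were potassium channel accessory subunits. The other members were 9 calcium channel pores, 11 calcium channel accessory subunits, 8 sodium channel pores and 3 sodium channel beta subunits.

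Potassium channels set the resting membrane potential and bring the membrane back to rest after excitation, while voltage-gated sodium and calcium channels carry the inward currents of excitable cells. In the intestinal epithelium, potassium channels of the crypt provide the driving force for chloride secretion, and enteroendocrine cells are electrically excitable and release hormone when calcium enters through voltage-gated channels. Kcnj3 encodes a subunit of the G protein-gated inward rectifiers, which open when G protein beta-gamma subunits bind to them after activation of Gi-coupled receptors.

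All animals were female Cyp1a1-H2B-YFP mice of 99 to 109 days, taken 10 days after beta-naphthoflavone had switched on the label. The Cyp1a1 promoter drives a fluorescent histone after this agent, and cells that divide dilute it. From each of the 6 mice 30000 cells were sorted for each population, so that arrays with the same mouse number were taken to share an animal. The litter label of the YFP-LRC array of mouse 6 differed from that of the other arrays of mouse 6, so the pairing of this array, and fits with the mouse as a block, rest on the array number and the study design. Paneth cells carried CD24 and bound the lectin UEA-1, YFP-LRC (label-retaining) cells carried CD24 and YFP without UEA-1 binding, and LCC cells carried CD24 without UEA-1 binding or YFP. Each population therefore had 6 arrays (Mouse Exon 1.0 ST), made from 8 ng of amplified RNA. A population defined by these gates can hold more than 1 cell type. Fewer cells of a type and less RNA per cell cannot be told apart in such samples.

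The LCC arrays stood apart. Their median correlation with the other 17 arrays across probe sets was 0.788 to 0.905, against 0.883 to 0.921 for YFP-LRC and 0.889 to 0.925 for Paneth. LCC mouse 6 had the lowest value, and LCC mice 1 and 4 had the highest values among the LCC arrays. Marker genes of the gated populations were read as the mean log2 value over a list on each array. The 6 Paneth cell markers lay at 11.73 to 12.43 in Paneth, 10.66 to 11.59 in YFP-LRC and 10.08 to 11.01 in LCC. The 10 enteroendocrine markers lay at 8.00 to 8.34 in YFP-LRC, 7.50 to 8.13 in LCC and 6.93 to 7.35 in Paneth. The 6 tuft cell markers with a value, of 8 listed, lay at 8.32 to 9.49 in Paneth, above 7.42 to 8.16 in YFP-LRC and 7.05 to 7.68 in LCC.

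Values are log2 RMA intensities, taken per gene as the median over the gene's probe sets. The 103 genes were covered by 1557 probe sets, with a median of 9 per gene. Probes differ in how strongly they bind, so a level was not compared between genes. The level was used for description only, with the median of all gene means (6.57) as the line. Of the 103 genes, 30 lay above it (29.1%) and 73 below, so that channel genes were mostly in the lower part of the range. Kcnj9 (6.58) and Kcnj15 (6.57) lay just inside the line, and Kcnj8 (6.53) and Kcnj14 (6.51) just outside. Kcnj3 (6.45) and Kcnma1 (6.41) were below it. The voltage-gated potassium subunits gave 11 of the 30 genes above the line, the calcium channel accessory subunits 5, the tandem-pore channels 4 and the calcium channel pores 3. None of the 8 sodium channel pores was above it.

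Promoter windows were looked up for genes on which the results turn. RefSeq windows (GRCm38.p6, 250 bases before to 50 after the annotated start) were matched by symbol to 82 of the 103 genes. Those of Kcnj3, Kcnma1 and Kcnk1 are printed because these genes were called in the comparisons below and have 1 window each. Capitals mark every E box, the letters CANNTG, which read the same way on both strands.

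Kcnj3, chr2:55435720-55436019, plus strand: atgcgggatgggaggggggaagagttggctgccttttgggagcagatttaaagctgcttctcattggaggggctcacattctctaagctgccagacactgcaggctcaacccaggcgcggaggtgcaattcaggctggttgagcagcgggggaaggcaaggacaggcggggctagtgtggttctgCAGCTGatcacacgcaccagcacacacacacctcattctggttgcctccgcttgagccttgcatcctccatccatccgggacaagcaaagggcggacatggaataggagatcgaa

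Kcnma1, chr14:24004156-24004455, minus strand: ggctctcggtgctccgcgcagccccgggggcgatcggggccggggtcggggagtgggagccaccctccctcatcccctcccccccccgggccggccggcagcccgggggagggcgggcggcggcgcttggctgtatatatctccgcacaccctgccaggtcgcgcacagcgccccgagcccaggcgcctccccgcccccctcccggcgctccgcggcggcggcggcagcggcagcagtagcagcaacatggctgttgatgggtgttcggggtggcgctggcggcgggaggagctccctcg

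Kcnk1, chr8:125994852-125995151, plus strand: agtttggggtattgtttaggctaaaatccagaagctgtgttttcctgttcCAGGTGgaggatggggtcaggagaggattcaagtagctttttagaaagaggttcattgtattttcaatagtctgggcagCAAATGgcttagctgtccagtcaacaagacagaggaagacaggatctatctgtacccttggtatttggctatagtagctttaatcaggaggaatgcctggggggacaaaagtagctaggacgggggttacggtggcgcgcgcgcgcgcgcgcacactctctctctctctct

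The Kcnj3 window held 1 E box, the Kcnk1 window 2 and the Kcnma1 window 0. Of all 32851 windows of this length, 72.3% held at least 1 E box, as did 71.7% of the 113 windows of channel genes. The Kcnma1 window was rich in CG pairs, with 36, a number reached by 6.2% of all windows. Both other windows held 10 CG pairs, a number reached by 43.5%. The GC box GGGCGG, read on both strands and counted with overlaps, occurred 3 times in the Kcnma1 window, once in that of Kcnj3 and not in that of Kcnk1, and 35.7% of all windows and 48.7% of channel gene windows held it. The median number of CG pairs was 7 over all windows and 9 over channel gene windows. These are matches of letters, with no binding measured.

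In the comparison of YFP-LRC with LCC cells, 4 channel genes were higher in YFP-LRC and 0 were lower. The higher genes were Kcnq1, Kcnma1, Kcnk1 and Cacna1a, at log2 differences of 0.53 to 1.29. They make up 3.88% of the 103, against 6.33% of all genes called higher and 0.917% called lower. A second quantile normalization gave 2 higher and 1 lower. At an unadjusted p under 0.05 there were 14 channel genes (13.6%), 6 higher and 8 lower, against 24.8% of all genes. The median difference over the 103 genes was -0.12, with 75 of them negative, while the median over all genes was 0.04 and that over all genes below the line was -0.08. The 4 stem cell markers lay at 6.78 to 7.84 in LCC and at 8.10 to 8.59 in YFP-LRC, and 3 of them were higher in YFP-LRC. Their part in the channel differences was not tested.

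Kcnq1 encodes the pore of a slowly activating voltage-gated potassium channel, which in crypts works with the accessory subunit Kcne3 on the basolateral membrane. Its lowest, median and highest values were 6.83, 7.12 and 8.18 in LCC, 8.15, 8.60 and 8.82 in YFP-LRC, and 7.77, 8.45 and 8.63 in Paneth. The LCC array of mouse 1, at 8.18, stood within the range of the other populations, and the remaining 5 LCC arrays lay at or below 7.30. YFP-LRC exceeded LCC by 1.29 ± 0.21 (SE, n = 6, adjusted p = 0.00283 in limma), in 6 of 6 mice and at 16 of 19 probe sets. Without the LCC arrays of mice 5 and 6 the difference was 1.18 with an adjusted p of 0.0211. With the LCC arrays of mice 1 and 4 alone it was 0.96, with an adjusted p of 0.333.

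Kcnma1 encodes the large-conductance potassium channel opened by calcium and depolarisation. Its values were 5.06, 5.52 and 6.02 (lowest, median, highest) in LCC, 5.96, 6.51 and 7.39 in YFP-LRC, and 6.60, 7.17 and 7.67 in Paneth. All Paneth arrays were above all LCC arrays, and the YFP-LRC arrays overlapped both. YFP-LRC exceeded LCC by 1.03 ± 0.24 (SE, adjusted p = 0.0179), in 6 of 6 mice and at 30 of 35 probe sets. That call ended without the LCC arrays of mice 5 and 6, at 1.03 with an adjusted p of 0.0576. It also ended without all arrays of mouse 2 or of mouse 6, with adjusted p up to 0.0723.

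Kcnk1 encodes a weakly inward-rectifying tandem-pore channel. Its values were 6.39, 6.75 and 7.20 in LCC, 7.27, 7.43 and 8.57 in YFP-LRC, and 7.16, 7.54 and 7.85 in Paneth. The lowest YFP-LRC array lay above the highest LCC array, and the array of mouse 6 stood above the other YFP-LRC arrays. The difference from LCC was 0.87 ± 0.21 (adjusted p = 0.0194), in 6 of 6 mice and at 5 of 7 probe sets. Without the LCC arrays of mice 5 and 6 it was 0.83, with an adjusted p of 0.0861, and the call also ended without mouse 2, 3 or 5.

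Cacna1a encodes the pore of the P/Q-type calcium channel, which triggers transmitter release at nerve terminals. Its values were 7.02, 7.16 and 7.55 in LCC, 7.40, 7.79 and 8.00 in YFP-LRC, and 6.78, 7.22 and 7.48 in Paneth. Most YFP-LRC arrays were above all others, and only that of mouse 1 (7.40) fell within the range of both. YFP-LRC exceeded LCC by 0.53 ± 0.14 (adjusted p = 0.0337), in 6 of 6 mice and at 31 of 45 probe sets. This call was lost without any 1 of 7 arrays (LCC of mice 2, 3 or 5, or YFP-LRC of mice 2, 3, 4 or 5), with adjusted p up to 0.0793, and without the LCC arrays of mice 5 and 6 the difference was 0.63 (adjusted p = 0.0512). YFP-LRC also exceeded Paneth, by 0.58 ± 0.14, in 6 of 6 mice and at 39 of 45 probe sets, but with an adjusted p of 0.134.

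**Figure D1:**
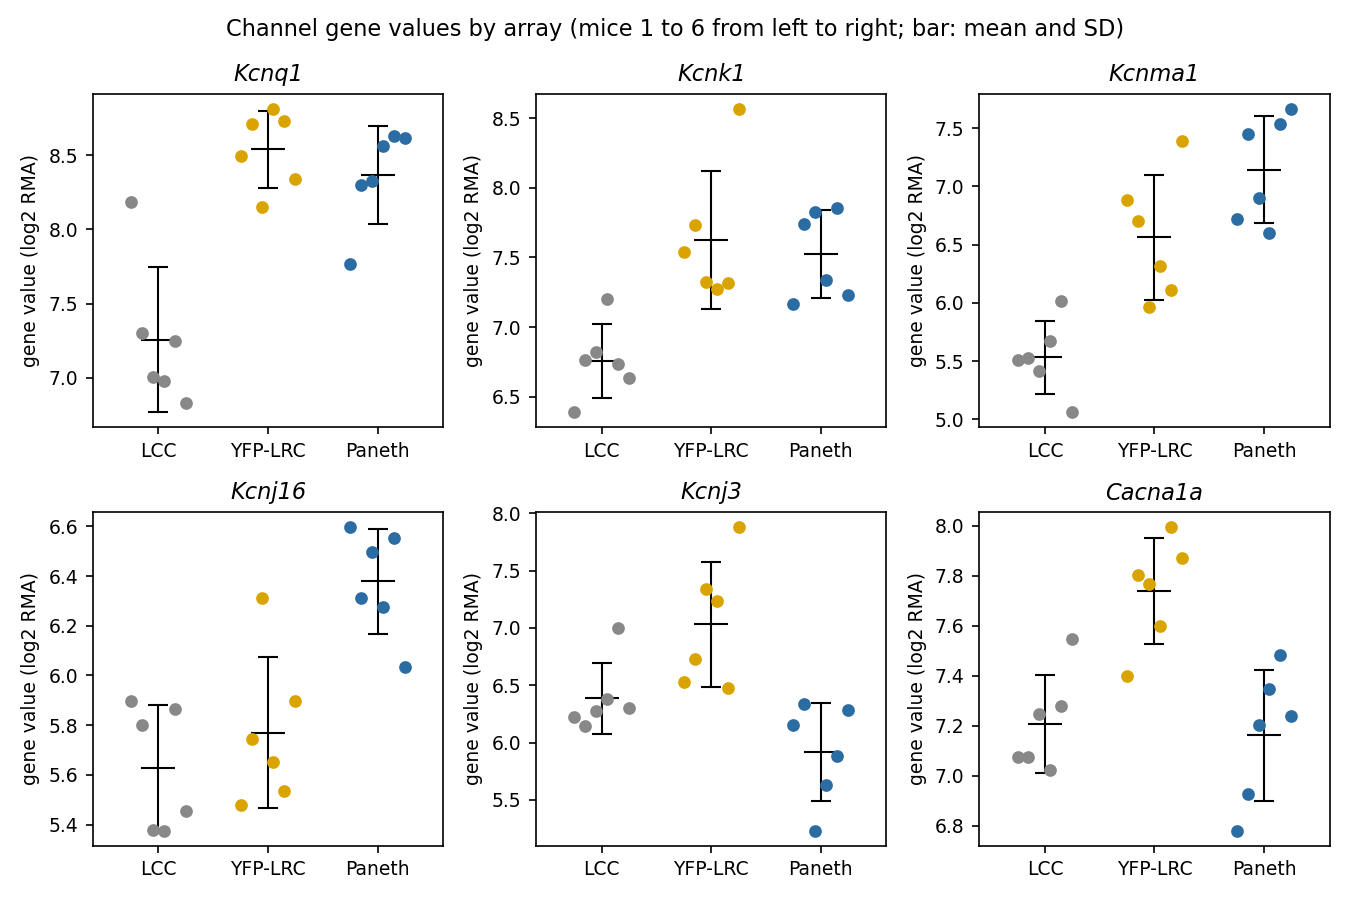
Gene values (log2 RMA, vertical axis) of 6 channel genes on each array, by population, with points for mice 1 to 6 from left to right and bars for the mean and SD of 6 arrays. Kcnq1, Kcnk1 and Kcnma1 were lower on most LCC arrays, with the LCC array of mouse 1 at 8.18 for Kcnq1, while Kcnj16 was highest in Paneth, and Kcnj3 and Cacna1a had their highest means in YFP-LRC.

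When Paneth cells were compared with LCC cells, 4 channel genes were higher in Paneth (Kcnma1, Kcnq1, Kcnk1 and Kcnj16) and 6 were lower (Kcna3, Kcna5, Kcna7, Kcnh3, Kcnk13 and Scn1a). These are 3.88% and 5.83% of the 103 genes. Of all genes 12% were called higher and 2.53% lower. At an unadjusted p under 0.05 there were 27 (26.2%), 7 higher and 20 lower, against 30.2% of all genes. Both comparisons with LCC use the same 6 LCC arrays, so their values are given side by side and do not support each other. The median difference over the 103 was -0.16, with 82 negative, against 0.03 over all genes and -0.12 over all genes below the line. The split of calls moved with the scaling. Centring each array on its median gave 4 higher and 16 lower, and a second quantile normalization gave 3 higher and 10 lower. The shares of all genes called under these scalings are not given here, so these counts are not read as particular to channel genes. The array medians of all genes were higher than in LCC by 0.11 in Paneth and by 0.10 in YFP-LRC.

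Kcnma1 had the largest of these differences, 1.61 ± 0.24 (SE, n = 6, adjusted p = 0.000301), a 3.05-fold higher value in Paneth, in 6 of 6 mice. It was higher at 29 of 35 probe sets and stayed called under all 34 alternatives run for it, at 1.01 to 1.78 with adjusted p up to 0.0417. The 6 tuft cell markers with a value were also all called higher in Paneth than in LCC, Trpm5 by 1.22 ± 0.21 and Dclk1 by 1.34 ± 0.25. Their part in the Kcnma1 difference was not tested. Kcnq1 exceeded LCC by 1.11 ± 0.21 (adjusted p = 0.0019), in 5 of 6 mice. In mouse 1 the LCC value of 8.18 was above the Paneth value of 7.77. Kcnk1 was higher by 0.77 ± 0.21 (adjusted p = 0.0186), in 6 of 6 mice, an excess that fell to 0.57 with an adjusted p of 0.0633 when its leading probe set was left out. Without the LCC arrays of mice 5 and 6 Kcnq1 was higher by 1.00 (adjusted p = 0.0152), and Kcnk1 differed by 0.73 (adjusted p = 0.0774).

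Kcnj16 encodes an inward rectifier that in kidney forms channels with Kcnj10. Its values were 5.38, 5.63 and 5.90 in LCC, 5.48, 5.70 and 6.31 in YFP-LRC, and 6.04, 6.41 and 6.60 in Paneth. The Paneth arrays were all above the LCC arrays, and 1 YFP-LRC array (mouse 3) reached the Paneth range. The difference was 0.75 ± 0.16 (adjusted p = 0.00465), in 6 of 6 mice. It was carried by few probe sets, since 4 of 6 had its sign and without the leading one it was 0.24, with an adjusted p of 0.341. Without the LCC arrays of mice 5 and 6 it was 0.77 (adjusted p = 0.0169). Paneth also exceeded YFP-LRC by 0.61 ± 0.16 in 6 of 6 mice, with an adjusted p of 0.163.

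The genes that were lower in Paneth than in LCC differed by 0.43 to 0.79 on the log2 scale. Kcna3, a voltage-gated channel known for setting the membrane potential of T lymphocytes, had values of 7.70, 8.04 and 8.30 in LCC and 7.07, 7.55 and 7.65 in Paneth. These groups did not overlap, and the difference was -0.53 ± 0.15 (adjusted p = 0.0216). YFP-LRC, at 7.30, 7.57 and 8.02, overlapped both. The difference was seen at 2 of 3 probe sets and was -0.27 without the leading one, with an adjusted p of 0.162.

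Kcna5 and Kcna7, also pores of the voltage-gated Shaker family, differed by -0.50 ± 0.17 (adjusted p = 0.0495) and -0.46 ± 0.14 (adjusted p = 0.0365). Kcnh3, a voltage-gated channel of the brain, differed by -0.43 ± 0.13 (adjusted p = 0.0331). Kcnk13, a tandem-pore channel known from microglia, differed by -0.68 ± 0.20 (adjusted p = 0.0259), and Scn1a, a sodium channel pore of neurons, by -0.79 ± 0.24 (adjusted p = 0.0357). For each of these 5 genes the ranges of both populations overlapped. Each of the 5 calls also ended without the leading probe set, with adjusted p of 0.0631 to 0.168. The Scn1a values, all below the line of 6.57, ran from 3.64 to 5.39 in LCC and from 3.53 to 3.98 in Paneth. The highest was that of LCC mouse 6.

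None of the 6 lower calls held without the LCC arrays of mice 5 and 6, where the differences were -0.35 to -0.55 and the adjusted p 0.109 to 0.197. Without LCC mouse 6 alone 0 of 103 genes were called lower, and without LCC mouse 3 or mouse 5 alone 1. Without LCC mouse 1 there were 10, without Paneth mouse 2, 3 or 4 there were 2, without Paneth mouse 5 there were 3, and without any other array 4 to 7. How the share of all genes called lower moved with these arrays is not given here. The mean over the 73 genes below the line was 5.81 on LCC mouse 6 and 5.61 on LCC mouse 1. The Paneth arrays gave 5.53 to 5.60 and the YFP-LRC arrays 5.54 to 5.79. The median absolute residual of the probe sets, which also holds differences between populations, was 0.557 on LCC mouse 6 and 0.279 on LCC mouse 1. With this residual as a covariate the 6 differences were -0.25 to -0.41 and none was called. The covariate can take up part of a population difference, so this fit does not show why the calls ended. The 5 myeloid markers lay at 6.46 to 7.05 in LCC and 5.96 to 6.62 in Paneth, with Tyrobp lower in Paneth by 1.02 on the log2 scale (adjusted p = 0.0062). Il1b was also called, with a difference of -1.03. The other 3 were not called, Fcer1g at -0.18, Csf1r at -0.03 and Lyz2 at 0.32. The 5 T cell markers lay at 5.88 to 6.58 in LCC and 5.79 to 6.40 in Paneth, with Ptprc higher in Paneth by 1.33, while the differences of the other 4 were -0.88 to -0.38 and were not called. The part of these cells in the lower values was not tested.

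**Figure D2:**
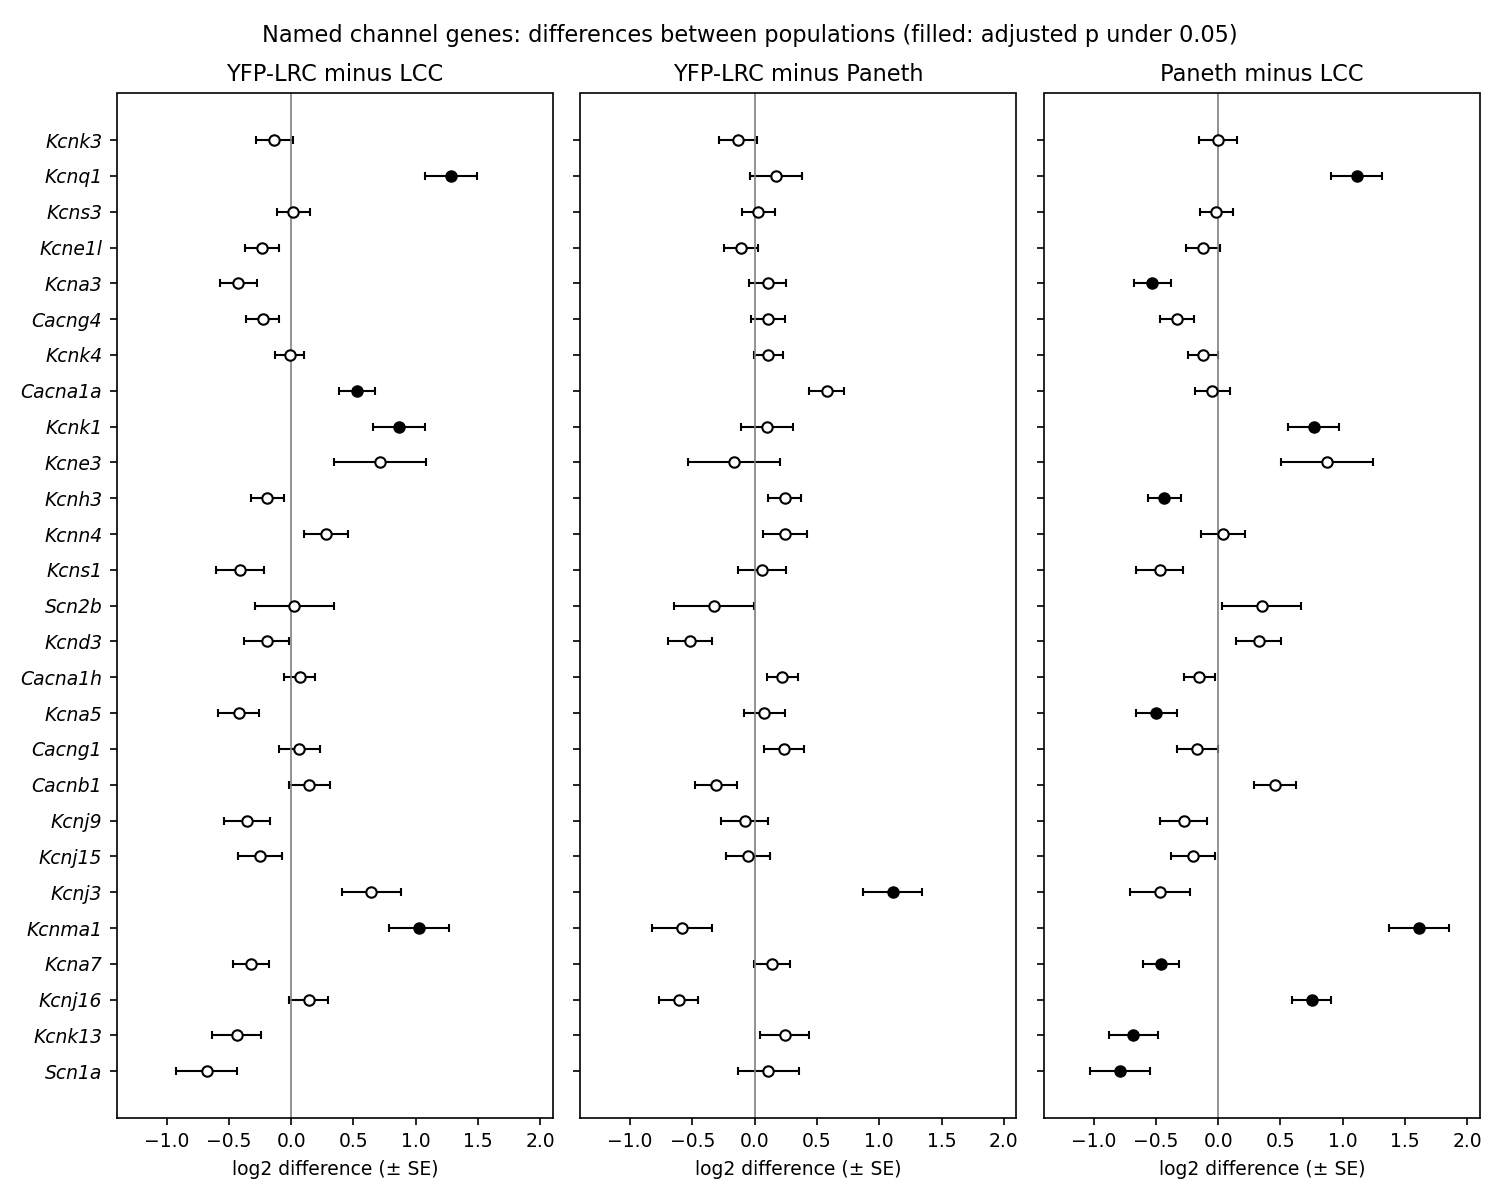
Log2 differences ± SE of the 27 named channel genes in each comparison (n = 6 arrays per population), with filled points at an adjusted p under 0.05. The points of Kcnq1, Kcnk1 and Kcnma1 lie to the right in both comparisons with LCC, Kcnj3 is the filled point in the comparison of YFP-LRC with Paneth, and 6 filled points lie to the left for Paneth minus LCC.

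In the comparison of YFP-LRC with Paneth cells, 1 channel gene was higher in YFP-LRC, Kcnj3, and 0 were lower. This is 0.971% of the 103, and over all genes 0.055% were called higher and 0.3% lower. At an unadjusted p under 0.05 there were 8 (7.77%), against 5.52% of all genes, of which 4 had a positive difference (Cacna1a, Kcnj3, Kcnj5 and Cacna2d1) and 4 a negative one (Kcnd3, Kcnma1, Kcnj16 and Cacnb4). Kcnj5, Cacna2d1 and Cacnb4 were picked out after their values were seen. The median difference over the 103 genes was 0.07, against 0.00 over all genes.

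Kcnj3 had values of 6.15, 6.29 and 6.998 in LCC, 6.48, 6.98 and 7.88 in YFP-LRC, and 5.23, 6.02 and 6.34 in Paneth. Every YFP-LRC array was above every Paneth array, and the LCC arrays lay between with overlap on both sides. The closest were YFP-LRC mouse 5 at 6.48 and Paneth mouse 2 at 6.34, while YFP-LRC mouse 6 was highest. Within single mice the difference was positive in 6 of 6, and its mean was 1.11 ± 0.24 (adjusted p = 0.0455). With the mouse as a block the adjusted p was 0.0822. Leaving out any 1 of 13 arrays ended the call, with adjusted p up to 0.145. These were the LCC arrays other than that of mouse 5, the YFP-LRC arrays of mice 2, 3, 4 and 6, and the Paneth arrays of mice 1, 3, 4 and 5.

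The gene is covered by 4 probe sets, all of them higher in YFP-LRC than in Paneth but unequally so. Probe set 4 in file order had mean values of 6.05 in LCC, 7.17 in YFP-LRC and 5.35 in Paneth. Probe set 1 had 7.75, 7.48 and 7.24, probe set 2 had 6.88, 7.06 and 6.35, and probe set 3 had 5.47, 5.23 and 4.82. YFP-LRC therefore had the highest mean at probe sets 2 and 4, and LCC at probe sets 1 and 3. Without probe set 4 the gene's difference between YFP-LRC and Paneth was 0.63, with an adjusted p of 0.97.

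**Figure D3:**
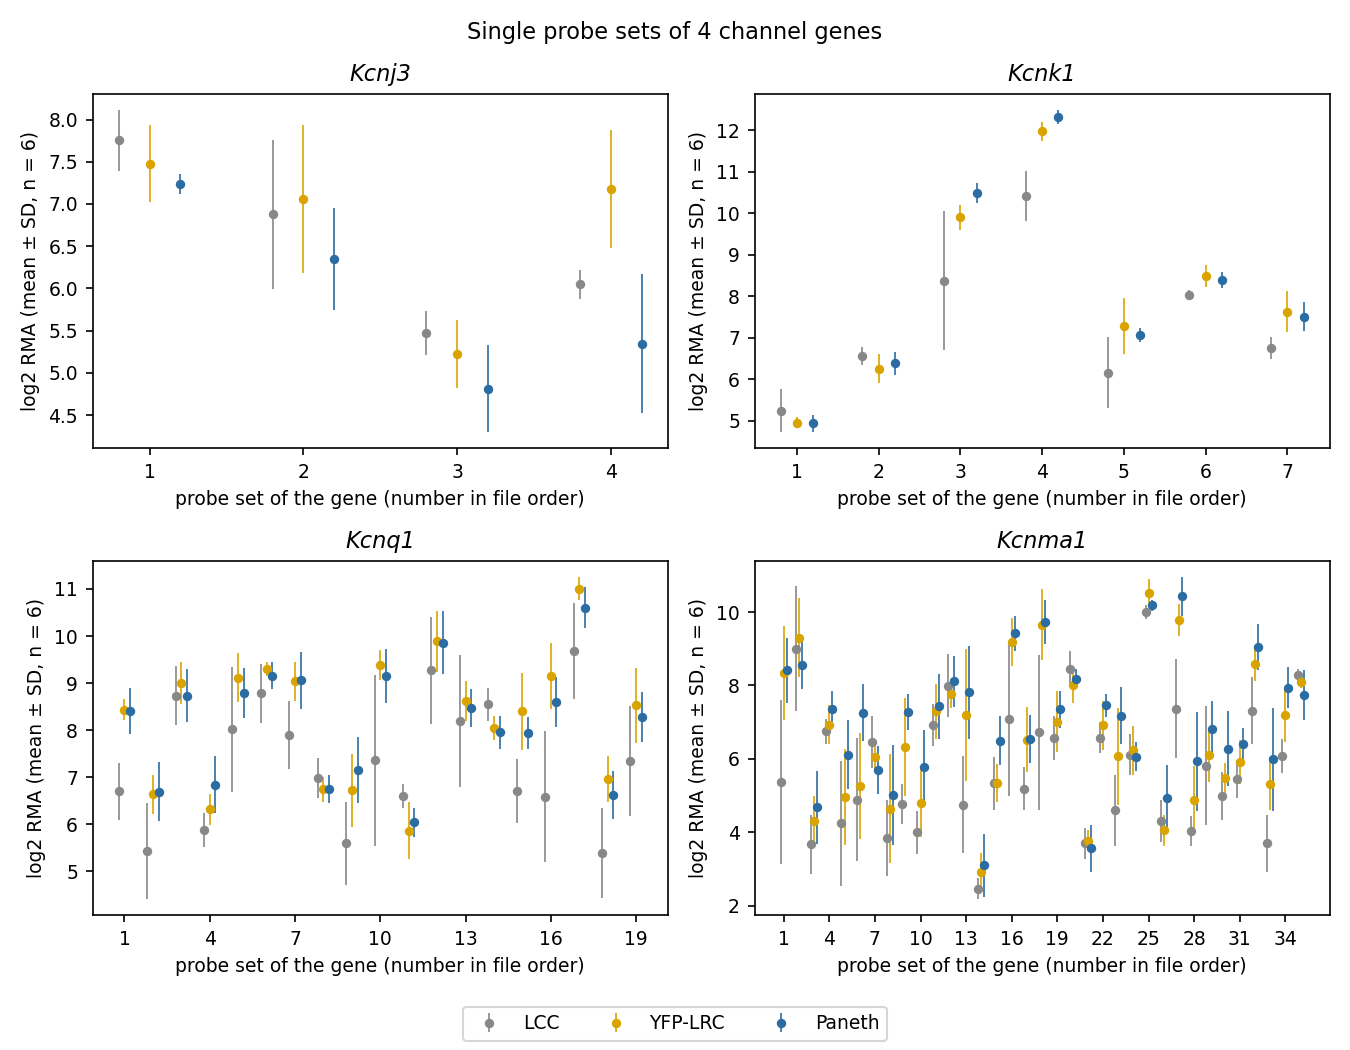
Mean ± SD over 6 arrays (log2 RMA) at each probe set of 4 channel genes, numbered in file order, by population. For Kcnj3 the populations are farthest apart at probe set 4, from 5.35 in Paneth to 7.17 in YFP-LRC, while Kcnk1, Kcnq1 and Kcnma1 have several probe sets with LCC as the lowest.

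The partners of Kcnj3 were examined because its product needs another subunit to reach the cell surface. Kcnj5, its partner in the atrium, had values of 4.73, 5.76 and 6.49 in LCC, 5.39, 6.04 and 6.31 in YFP-LRC, and 4.77, 5.21 and 5.63 in Paneth. YFP-LRC and Paneth overlapped over a short range, and YFP-LRC was higher in 6 of 6 mice by 0.75 ± 0.24, with an adjusted p of 0.371. Kcnj9, a neuronal partner, did not pass in any comparison (adjusted p of 0.25 to 0.994). Of 27 listed partners, G protein subunits and RGS regulators, 26 had a value and 0 were called between YFP-LRC and Paneth, with a median difference of 0.09. Over all genes 0.055% were called higher and 0.3% lower. The differences were positive for 15 and negative for 11. Unadjusted p was under 0.05 for 5 of the 26 (19.2%) in this comparison, against 5.52% of all genes. For YFP-LRC against LCC there were 9 (34.6%) and for Paneth against LCC 5 (19.2%), where all genes gave 24.8% and 30.2%. Against LCC, 1 of the 26 was called higher in YFP-LRC (3.85%, against 6.33% of all genes) and 0 were called lower. In Paneth 3 of the 26 were called higher, where all genes gave 12%, and 1 lower (3.85%, against 2.53%). These calls are not read as particular to the partners of Kcnj3. Gng12 was higher than in LCC by 0.88 ± 0.22 in YFP-LRC and by 0.76 ± 0.22 in Paneth. The inhibitory alpha subunit Gnai2 was higher in Paneth than in LCC by 0.83 ± 0.15 and the regulator Rgs2 by 1.35 ± 0.25, while Gng2 was lower by 0.59 on the log2 scale. Of 17 Gi-coupled receptors listed, 11 had a value, and 0 were called in any of the comparisons. At an unadjusted p under 0.05 there were 2 of the 11 for YFP-LRC against LCC, 1 for YFP-LRC against Paneth and 5 for Paneth against LCC, that is 18.2%, 9.09% and 45.5%, where all genes gave 24.8%, 5.52% and 30.2%.

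Cacna2d1 encodes the alpha-2-delta subunit that brings calcium channel pores to the membrane and binds gabapentin. Its values were 4.29, 4.36 and 5.17 in LCC, 4.48, 5.02 and 5.79 in YFP-LRC, and 3.79, 4.16 and 4.53 in Paneth. Only the lowest YFP-LRC and the highest Paneth values crossed. All values of the gene lay below the line of 6.57, and its probe sets 6 and 13 in file order had means of 2.07 to 2.58 across the populations. YFP-LRC was higher by 0.90 ± 0.21 in 6 of 6 mice and at 35 of 39 probe sets, with an adjusted p of 0.0756. With the mouse as a block the difference had an SE of 0.15 and was called (adjusted p = 0.014). Cacna1a and Cacna2d1 were both higher in YFP-LRC than in Paneth in all 6 mice. All 10 enteroendocrine markers had positive differences on these arrays, with a median of 0.90, and 4 were called while 6 were not. Chga differed by 1.30 ± 0.24, Gip by 2.55 ± 0.21 and Sct by 0.07. Between YFP-LRC and LCC, where Cacna1a was called, 0 of the 10 markers were called, with 8 positive and 2 negative. The part of these markers in the channel values was not tested.

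In the fit to all arrays without the block, no calcium channel gene was called between YFP-LRC and Paneth. All 9 pores had a positive difference between YFP-LRC and Paneth, but the median was 0.08 and 0 were called. Over all 16358 genes 8258 were positive. Cacna1h, a T-type pore, differed by 0.22 ± 0.13 and had 37 of 43 probe sets with that sign. Cacnb1, the beta subunit of the skeletal muscle channel, had values of 6.67 to 7.55 in Paneth and 6.21 to 6.66 in LCC. These ranges did not overlap, and the difference of 0.46 ± 0.17 had an adjusted p of 0.0704. The muscle subunit Cacng1 and Cacng4, a relative that also regulates glutamate receptors, were not called in any comparison. All 8 sodium channel pores had negative differences for Paneth against LCC, with a median of -0.28, and Scn1a was the 1 called. Of the 8179 genes below the line, where all 8 pores lay, 5357 were negative, with a median of -0.12. The beta subunit Scn2b had a single high Paneth array, mouse 6 at 8.50, and was not called.

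Among potassium channel accessory subunits 0 of 16 were called in any comparison. At an unadjusted p under 0.05 there were 1, 0 and 2 for YFP-LRC against LCC, YFP-LRC against Paneth and Paneth against LCC (6.25%, 0% and 12.5%), below the 24.8%, 5.52% and 30.2% of all genes. Kcne3, the partner of Kcnq1, spread widely between arrays. Its values were 5.87, 6.64 and 7.67 in LCC, 6.59, 7.60 and 8.27 in YFP-LRC, and 6.36, 7.80 and 8.28 in Paneth. The low arrays were LCC of mice 2, 5 and 6, and also YFP-LRC and Paneth of mouse 6. Paneth exceeded LCC by 0.88 ± 0.37 in 5 of 6 mice, with an adjusted p of 0.117. With the mouse as a block the adjusted p was 0.0431. Kcnq1 on the mouse 6 arrays read 8.34 in YFP-LRC and 8.62 in Paneth, both above the LCC range.

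Other named potassium channels were not called in any comparison. Kcnn4, the intermediate-conductance calcium-activated channel of crypt chloride secretion, had means of 7.06 ± 0.39 in LCC, 7.35 ± 0.11 in YFP-LRC and 7.10 ± 0.33 in Paneth (SD, n = 6). Kcnk3, an acid-sensitive tandem-pore channel, had means of 8.12 ± 0.21, 7.98 ± 0.27 and 8.12 ± 0.24 in the same order. Kcnk4, a mechanosensitive tandem-pore channel, and Kcns3 and Kcne1l, a silent modifier and an accessory subunit, had differences between -0.23 and 0.11. Kcnd3, a pore of the A-type current, differed between YFP-LRC and Paneth by -0.52 ± 0.18, with that sign in 6 of 6 mice and an adjusted p of 0.521. The silent subunit Kcns1 differed between Paneth and LCC by -0.47 ± 0.19, and the inward rectifier Kcnj15 by -0.20 ± 0.18. Neither was called.

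**Figure D4:**
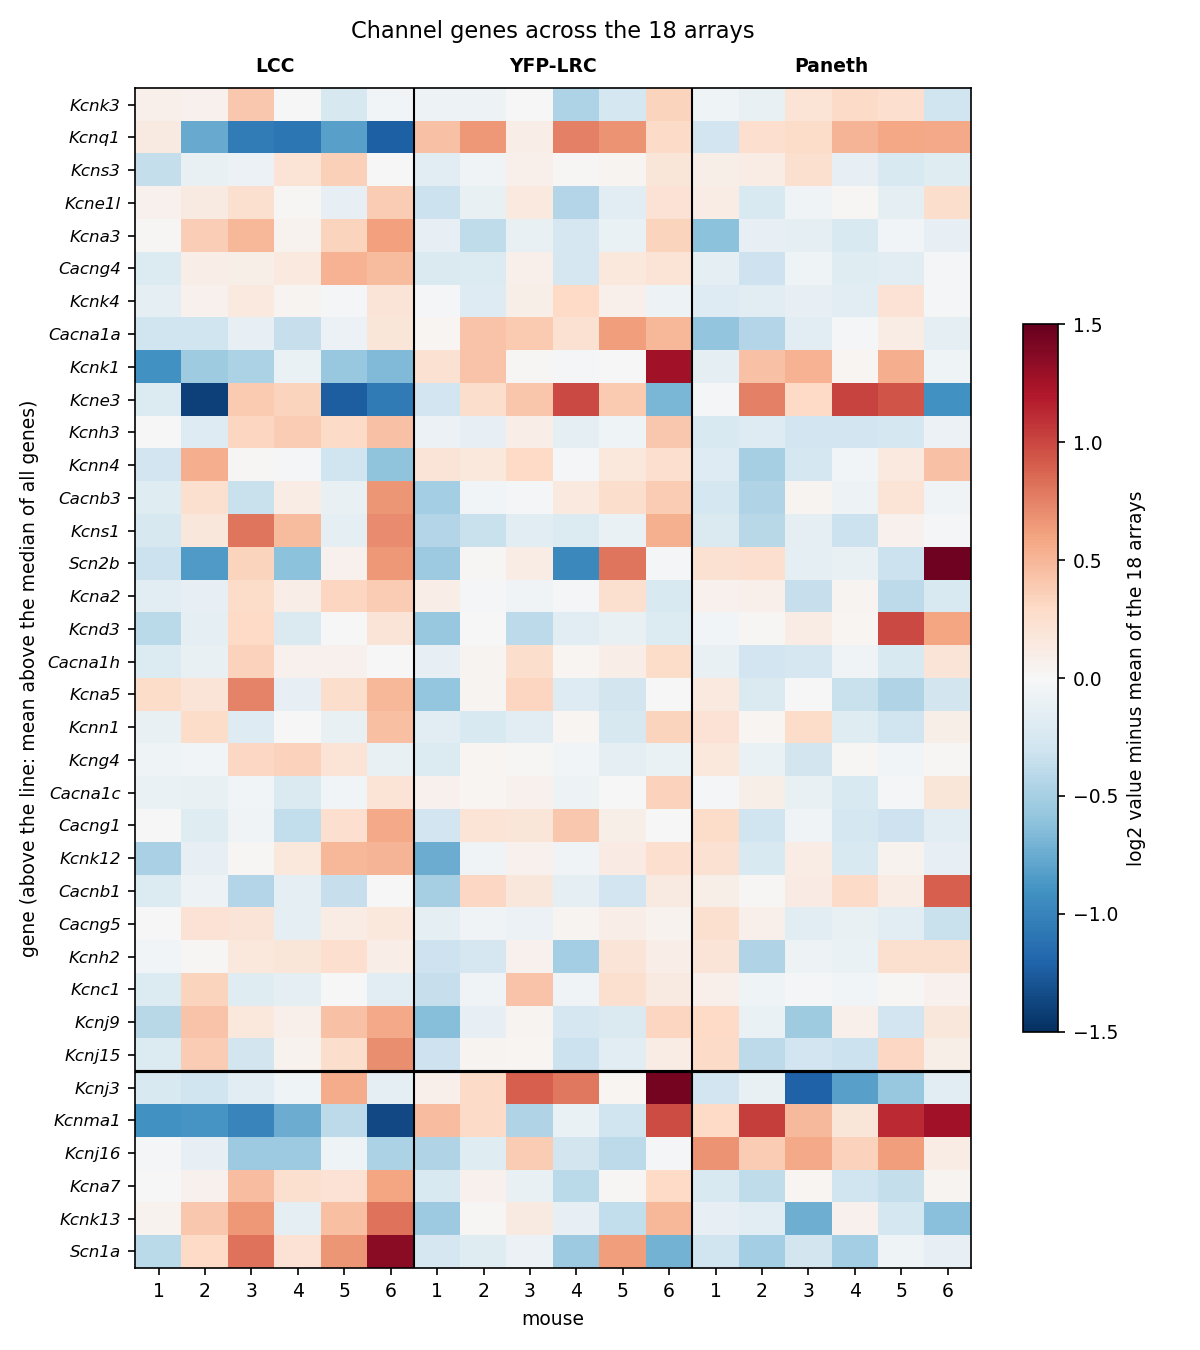
Values of 36 channel genes on the 18 arrays, each minus the gene's mean over all arrays (log2, red for higher and blue for lower, colours ending at -1.5 and 1.5), with the 30 genes above the median of all genes over the line and 6 further named genes under it. Kcnq1 is low on 5 LCC arrays, Kcnma1 and Kcnk1 are below their means on all 6, and Scn1a is highest on LCC mouse 6.

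Over all comparisons 12 of the 103 genes were called at least once and 91 never. The share of all genes called at least once is not given here, so this count is not read as particular to channel genes. Kcnq1, Kcnk1 and Kcnma1 were called against LCC from both other populations, and their differences between YFP-LRC and Paneth were 0.17 ± 0.21, 0.10 ± 0.21 and -0.58 ± 0.24, all with an adjusted p of 0.762 or more. With the LCC arrays of mice 1 and 4 alone the differences of YFP-LRC from LCC were 0.96, 0.83 and 0.97, against 1.29, 0.87 and 1.03 with all 6. The adjusted p then lay between 0.333 and 0.442. The number of calls without single arrays was steadier for the higher genes than for the lower ones in the comparison of Paneth with LCC. The matching counts over all genes are not given here, so this steadiness is not read as particular to channel genes.

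**Figure D5:**
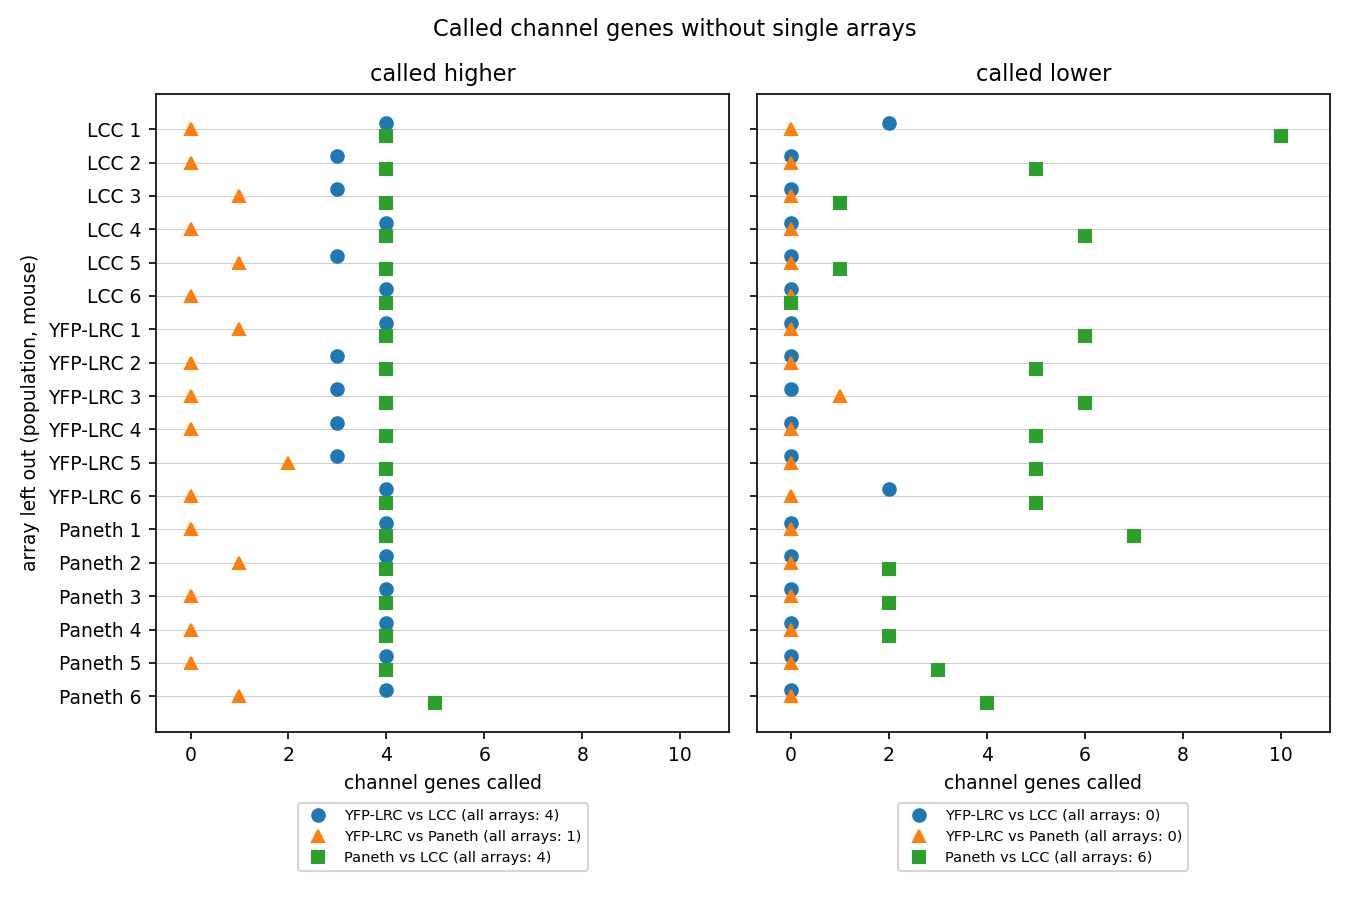
Number of the 103 channel genes called higher (left) or lower (right) when 1 array is left out, with a symbol per comparison and a row per left-out array. Higher calls for Paneth against LCC stayed at 4 or 5, while lower calls ran from 0 without LCC mouse 6 to 10 without LCC mouse 1. The matching counts over all genes are not shown.

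Genes of related function were read from lists of the same kind. Among 31 measured of 37 other cation channels, the inositol trisphosphate receptors Itpr1 and Itpr2, which release stored calcium, were higher in YFP-LRC than in LCC by 0.64 ± 0.13 and 0.83 ± 0.17. These 2 of 31 (6.45%) are near the 6.33% of all genes. Between Paneth and LCC 4 of 31 were higher (12.9%, against 12% of all genes). They were Itpr2 by 1.21, the tuft cell channel Trpm5 by 1.22, Trpm7 by 1.02 and the ATP-gated P2rx4 by 1.15. The store-operated channel Orai1 was lower by 0.51 on the log2 scale, 1 of 31 (3.23%) against 2.53% of all genes. Among 15 measured of 18 chloride channel and ion transport genes, the chloride-loading cotransporter Slc12a2 was higher by 1.22 ± 0.36 in YFP-LRC and by 1.24 ± 0.36 in Paneth than in LCC. In Paneth, Ano6 and Clcn3 were higher as well, by 0.90 and 1.17. These calls were 1 (6.67%) and 3 (20%) of the 15, where all genes gave 6.33% and 12%. Of 12 measured of 16 partners of excitable-cell channels, the sodium channel anchor Ank3 was higher in YFP-LRC (0.61 ± 0.14) and in Paneth (0.83 ± 0.14) than in LCC. Ank2 was also higher in Paneth (0.52), and Abcc9 and Stac2 were lower, by 0.36 and 0.43 on the log2 scale. These were 1 of 12 higher (8.33%) in YFP-LRC, and 2 of 12 in each direction (16.7%) in Paneth. Of all genes 6.33% were higher in YFP-LRC, and in Paneth 12% were higher and 2.53% lower. Between YFP-LRC and Paneth 0 genes of these 3 lists were called. At an unadjusted p under 0.05 there were 4, 1 and 2 (12.9%, 6.67% and 16.7%), against 5.52% of all genes.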

How the data were processed

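The deposited values are log2 RMA intensities of core probe sets, made by the authors with Affymetrix Power Tools 1.12.0 per the file headers, on mm9. RMA corrects background, makes the arrays' distributions equal and summarises probes, which compresses small differences near background. The table holds 229581 probe sets and 18 arrays. The platform annotation gave 1 gene symbol to 209279 probe sets, several to 4446 and none to 15856, and only the first were used. A gene value was the median of its probe sets (16358 genes). limma 3.58.1 in R 4.3.3 (lmFit, eBayes) was fitted to all genes and arrays with a mean per population, two-sided, with Benjamini-Hochberg adjustment over all genes, and genes at an adjusted p under 0.05 were called. The fit was tested on simulated data.

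The members and lists were chosen with earlier results of these data known. The named genes were Kcnj3, every gene called, the 5 genes above the line with the largest differences per comparison and direction, the highest gene of each subfamily above the line and the 8 with the highest means. One further gene was left out of the set and is not reported here. The number of arrays limits the precision.

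The design pairs the arrays by mouse. Deviations from the population means of same-mouse arrays correlated at 0.015 to 0.406 for YFP-LRC and LCC, 0.041 to 0.175 for YFP-LRC and Paneth, and -0.114 to 0.177 for Paneth and LCC. Alternatives were the mouse as a block, other normalizations, filters and summaries, fewer arrays, and the array residual as a covariate. This residual is the median absolute difference of an array's probe sets from their medians over all arrays, and also holds differences between populations.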

Additional observations from a re-analysis of the deposited data

Results flagged for a closer look

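In 81 groups of 6 arrays (27 named genes in 3 populations), 7 had 1 array far from the others, where chance gives about 1 group in 20. Kcnj3 on the LCC array of mouse 5 read 6.998 (log2), with the next array at 6.379. Kcnq1 on LCC mouse 1 read 8.184, next to 7.302. Kcnk1 on YFP-LRC mouse 6 read 8.567, next to 7.733, and Kcns1 on the same array 7.648, next to 7.013. Kcna3 on Paneth mouse 1 read 7.071, below the next array at 7.46. Scn2b and Cacnb1 were both highest on Paneth mouse 6, at 8.501 and 7.552, with the next arrays at 7.286 and 6.944.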

How the results depend on the processing

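Of the 37 gene and comparison pairs followed, only Kcnma1 between Paneth and LCC was among the 15 called that kept its call under every alternative run. In the order YFP-LRC against LCC higher and lower, YFP-LRC against Paneth higher and lower, and Paneth against LCC higher and lower, the counts with all arrays were 4, 0, 1, 0, 4 and 6. Leaving out arrays or mice gave ranges of 1 to 4, 0 to 2, 0 to 2, 0 to 1, 3 to 5 and 0 to 10. With the LCC arrays of mice 1 and 4 only they were 0, 0, 2, 0, 1 and 0, and with the array residual as a covariate 0, 0, 1, 0, 2 and 0. Without the LCC arrays of mice 5 and 6, an alternative chosen after seeing the data, they were 1, 0, 1, 0, 3 and 0. Fitting only the 2 populations compared gave 2, 0, 0, 0, 4 and 3, a second quantile normalization 2, 1, 0, 0, 3 and 10, and arrays centred on their medians 3, 0, 0, 0, 4 and 16. The mean over probe sets gave 4, 5, 0, 1, 5 and 19, of which 3 of the 19 were among the 6. Probe sets above the median only gave 3, 3, 0, 0, 3 and 14, with 2 of the 14 among the 6. Fitting only genes above the line gave 3, 0, 0, 0, 2 and 3, where the lost calls are those of genes that are not fitted (Kcnj3, Kcnma1, Kcnj16, Kcna7, Kcnk13 and Scn1a). The shares of all genes called under these alternatives are not given here, so no count is read as particular to channel genes. The cause of the other moves was not tested.

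With the replicate block (arrays paired by mouse) the counts were 4, 0, 1, 0, 5 and 7. Under it Cacna2d1 took the place of Kcnj3 (1.11, adjusted p = 0.0822), Kcne3 (0.88) and Kcna1 (-0.39) were added between Paneth and LCC, and no other count changed. Directions reversed for genes that were not called. Kcnj9 between YFP-LRC and LCC went from -0.355 to 0.024 with LCC mice 1 and 4 only and to 0.026 with the covariate, and Kcnj15 from -0.253 to 0.11 with the covariate and to 0.078 without its leading probe set, an alternative also chosen after seeing the data. Kcne3 between YFP-LRC and Paneth ranged from -0.418 to 0.008 when single arrays or mice were left out, with the highest value without YFP-LRC mouse 6. The number of genes above the line was 25 with the median of all probe sets as the line and 27 to 30 without single mice.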
